A study of Mus musculus with 4 samples.

Results

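The ribosomal protein genes of mouse, those of the cytosolic ribosome and those of the mitochondrial ribosome, were compared between 2 times, day 4 and day 7, in retinal aggregates grown from embryonic stem cells. Members were chosen by name alone: every symbol of the array's annotation of the form Rpl or Rps with a number, Rplp0 to Rplp2, Rpsa, and Mrpl or Mrps with a number. The annotation held 157 such symbols. Of these, 137 had a probe set naming that gene and no other, out of 22180 genes measured in this way, and 20 were named only by probe sets shared with other genes. The 137 were 67 cytosolic genes (25 of the small and 42 of the large subunit) and 70 mitochondrial genes (27 and 43). The name pattern leaves out a few ribosome components with other names or endings, such as Fau, Rack1, Dap3 and Mrps18c. RefSeq lists Rps4l as a transcribed pseudogene and Rpl6l as a pseudogene, so the Rp name does not make every member a working ribosomal protein gene.

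Both days were the same wild-type cell line, Rx-GFP, derived from EB5 cells of the 129/Ola strain, with GFP knocked in under the promoter of Rx, an eye field gene. The cells grew as aggregates in medium with matrigel, and all 4 samples carried the knock-in. There were 2 arrays per day, from whole aggregates and a single line. The labels do not say whether replicates were separate cultures, so the p-values rest on the spread among these 4 samples alone, and that spread may be technical.

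A cytosolic ribosome is built in the nucleolus from ribosomal RNA and a large set of ribosomal proteins, and it translates nuclear mRNAs. The mRNAs of these proteins begin with a C followed by a run of pyrimidines, the TOP motif, through which mTOR signalling sets how much of them is translated. The mitochondrial ribosome is made of a separate set of nuclear-encoded proteins that are imported into the organelle, where it translates the few mRNAs of mitochondrial DNA, all for subunits of the respiratory chain and ATP synthase. Loss of single cytosolic proteins in mouse and human gives tissue-limited defects, and free Rpl5 and Rpl11 bind Mdm2 and so stabilise p53.

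The start regions of the members show what the TOP motif and the promoter motifs look like. Promoter windows of 300 bases (250 before to 50 after the start, RefSeq, build GRCm38.p6) were found for 133 of the 157 named members, 65 cytosolic and 68 mitochondrial, in 77 and 74 windows. A polypyrimidine start (CTTTCC within 10 bases of the start on the plus strand alone, or in its place CTTTTC, or else the run CTTTTT) stood in 16.9% of the cytosolic windows, 1.35% of the mitochondrial windows and 2.02% of all 32851 windows of the table. The core CCGGAAG bound by GABP and other Ets factors, searched on both strands, stood in 35.1% of the cytosolic, 33.8% of the mitochondrial and 8.86% of all windows. The YY1 core AAGATGG, on both strands, stood in 15.6%, 17.6% and 6.34%, and the NRF1 core GCATGCG, on both strands, in 6.49%, 10.8% and 3.58%. The NRF1 core can match both strands at 1 place, shifted by a base, and then gives a longer run of capitals; Ets and YY1 cores were counted on their own, whether or not they overlapped. A match is a description of the letters and does not show that a factor binds there.

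The windows below run from 50 bases before to 20 bases after the start, 5′ to 3′ on the gene's strand, with the motif matches in capitals. They are shown for 3 TOP genes of the cytosolic ribosome (Rps6, Rpl38 and Rps27), for the cytosolic gene Rpl37a that fell, and for mitochondrial members with an Ets core (Mrpl34, Mrps27) or without a match in this stretch (Mrps18b, which fell).
Rps6, chr4:86857348-86857417, minus strand: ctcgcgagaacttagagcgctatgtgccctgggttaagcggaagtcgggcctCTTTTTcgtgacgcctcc
Rpl38, chr11:114668530-114668599, plus strand: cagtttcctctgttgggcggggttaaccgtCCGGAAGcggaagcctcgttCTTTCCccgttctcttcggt
Rps27, chr3:90213629-90213698, minus strand: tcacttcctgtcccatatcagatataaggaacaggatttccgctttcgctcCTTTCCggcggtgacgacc
Rpl37a, chr1:72711210-72711279, plus strand: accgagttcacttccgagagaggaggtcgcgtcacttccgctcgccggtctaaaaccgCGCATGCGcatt
Mrpl34, chr8:71464876-71464945, plus strand: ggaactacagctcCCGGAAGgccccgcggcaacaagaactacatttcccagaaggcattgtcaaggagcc
Mrps27, chr13:99344736-99344805, plus strand: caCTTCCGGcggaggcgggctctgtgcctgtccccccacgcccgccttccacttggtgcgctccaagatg
Mrps18b, chr17:35916421-35916490, minus strand: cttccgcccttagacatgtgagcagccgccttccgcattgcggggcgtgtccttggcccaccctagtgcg
The pyrimidine runs of the 3 TOP genes lie within 10 bases of the start, and CTTCCGG in Mrps27 is the Ets core read on the other strand. The median difference between the days was -0.03 log2 for the 10 measured cytosolic genes with a polypyrimidine start and -0.10 for the 42 with a window and no such start. For the Ets core it was -0.06 in 23 cytosolic genes with it and -0.10 in 29 without, and -0.07 in 22 mitochondrial genes with it and -0.13 in 39 without. For the NRF1 core the genes with it were the lower ones, at -0.13 (5 genes) against -0.07 (47) in the cytosolic and -0.14 (7) against -0.12 (54) in the mitochondrial set. For the YY1 core the medians were -0.09 (7 genes) against -0.10 (45) and -0.15 (13) against -0.11 (48). The 1 mitochondrial gene with a polypyrimidine start differed by 0.03, against a median of -0.12 for the other 60. These splits are descriptions with no test. Genes without a counted polypyrimidine start can still begin with a TOP motif, so that split does not part TOP genes from others.

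The eye field and neural markers that passed rose between the days, and the pluripotent cell markers that passed fell. The replicates correlated over the probe sets of the table with r = 0.986 (day 4) and r = 0.991 (day 7), and the 4 pairings of a day 4 with a day 7 array gave 0.972 to 0.978; probe sets are no independent replicates. Of 9 measured eye field and neural progenitor markers 5 rose and 0 fell, and of 9 pluripotent cell markers 5 fell and 0 rose. At an unadjusted p under 0.05 in limma, 1 marker of the first list was lower (difference -0.54) and 6 were higher. In the second list 1 was higher (difference 0.56) and 6 were lower. Of 6 neuron markers 3 rose and 1 fell, of 6 endoderm markers 1 rose, of 6 germ cell markers 1 rose and 1 fell, and of 7 mesoderm and muscle markers 0 passed. The log2 of the summed signal of the pluripotent markers was 13.3 to 13.5 at day 4 and 11.7 to 11.9 at day 7, and that of the eye field and neural markers was 12.4 to 12.6 and 13.1 to 13.2. The part of this shift in cell types in the differences below was not tested. In whole aggregates, fewer cells of a type and less RNA per cell cannot be told apart.

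Of the ribosomal protein genes, 4 passed the test. With limma, 4 of the 137 members were lower at day 7 at an adjusted p under 0.05 and 0 were higher, which is 2.92% of the members, against 10.5% of all genes (4.33% lower and 6.15% higher). The 4 were Rps4l and Rpl37a of the cytosolic ribosome and Mrps18b and Mrps34 of the mitochondrial small subunit. At an unadjusted p under 0.05, 17 members were lower and 3 were higher, 14.6% of the members against 23.1% of all genes. Only 7 members (5.11%) differed by 0.5 log2 or more in either direction, against 16.3% of all genes, and 1 member, Rps4l, differed 2-fold or more.

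For most members the data bound the size of a change in the signal of the probe set used. The 95% confidence interval of the difference lay within 1 log2 of 0, a 2-fold change either way, for 128 of the 137 members (93.4%), against 86.7% of all genes. It lay within 0.5 log2 for 41 of 67 cytosolic genes (61.2%) but for 22 of 70 mitochondrial genes (31.4%), against 35.1% of all genes. The intervals do not bound other probe sets of the same gene. For Rpl3 the interval ran from -0.34 to 0.30, while its other probe sets differed by -0.83 and -0.53.

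The small differences leaned one way. The difference was below 0 for 107 of the 137 members (78.1%), in 54 of 67 cytosolic and 53 of 70 mitochondrial genes, against 50.7% of all genes, with a median of -0.11 log2 against -0.004 for all genes. Both day 7 values lay below both day 4 values for 49 members (35.8%, against 25.1% of all genes) and above both for 8 (5.84%, against 25.6%). The medians of the 4 classes were close, -0.12 for the cytosolic small subunit, -0.09 for the cytosolic large subunit, -0.12 for the mitochondrial small subunit and -0.15 for the mitochondrial large subunit. Without day 4 replicate 1 the lean was gone: 72 of 137 members were below 0 (52.6%, against 52.9% of all genes), with medians of -0.01 in the cytosolic and -0.0026 in the mitochondrial genes.

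**Figure D1:**
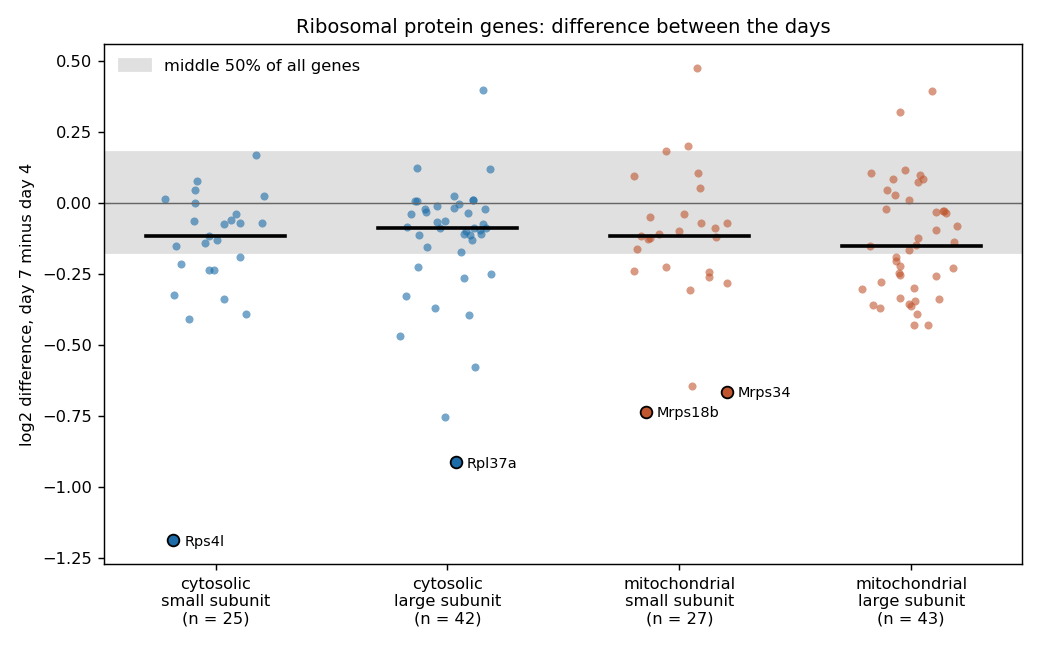
The day 7 minus day 4 difference (log2, vertical axis) of each of the 137 members by subunit; the black bars are class medians and the grey band is the middle 50% of all 22180 genes. The 4 outlined and named genes are those that passed the test, all of them lower at day 7, and the class medians lie between -0.15 and -0.09.

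In the large subunit of the cytosolic ribosome 1 of 42 genes fell and 0 rose (2.38% called, against 10.5% of all genes). At an unadjusted p under 0.05, 4 were lower and 1 was higher (11.9%, against 23.1% of all genes). Rpl37a, a zinc-binding protein of the large subunit, read 8.49 and 8.35 on the log2 scale at day 4 and 7.77 and 7.25 at day 7. Both day 7 arrays were below both day 4 arrays, and the difference was -0.91 ± 0.20 (SE, 2 arrays per day; 1.88-fold lower, adjusted p = 0.0281). Without day 4 replicate 1 its adjusted p was 0.0755, and without day 7 replicate 2 it was 0.168. A second, brighter probe set that names Rpl37a together with Mir682 read 12.55, 12.55, 12.55 and 12.49, a difference of -0.03, so the fall was seen in the dimmer of the 2 probe sets alone.

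The next largest differences of the large subunit did not pass. Rpl17, a protein at the exit of the nascent chain tunnel, read 6.98 and 6.14 at day 4 and 5.80 and 5.81 at day 7 (difference -0.75 ± 0.26, SE; adjusted p = 0.136). Rpl6 read 8.56 and 7.63 at day 4 and 7.63 and 7.40 at day 7 (difference -0.58 ± 0.29, SE; adjusted p = 0.299). For both genes day 4 replicate 1 stood high and day 4 replicate 2 lay near the day 7 arrays. Without day 4 replicate 2, Rpl17 (adjusted p = 0.0046) and Rpl6 (adjusted p = 0.0113) would pass. Rpl32l, the member with the lowest signal of the large subunit, read 4.18, 4.12, 4.68 and 4.43 and had the highest difference of the class (0.40 ± 0.15, SE; adjusted p = 0.170).

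The gene with the brightest probe set of the large subunit was Rpl41. Rpl41, which encodes the shortest ribosomal protein, read 13.40 and 13.25 at day 4 and 13.33 and 13.37 at day 7, a difference of 0.02. The stalk protein Rplp0, a reference gene in many PCR assays, read 12.51, 12.44, 12.34 and 12.27, a difference of -0.17 that did not pass (adjusted p = 0.567). Rpl32, also used as a reference, differed by -0.07 and Rps18 of the small subunit by -0.39 ± 0.15 (SE; adjusted p = 0.176). Rpl13a had no probe set of its own, and its 4 shared probe sets differed by -0.45 to -0.15. They also named Snord33 and Mir5121, Snord34, Snord32a or Flt3l, so the gene that gave the signal cannot be told apart. In the lowest, shared with Snord34, day 4 replicate 1 read 10.26 and the other arrays 9.51, 9.41 and 9.45. Rplp0, Rpl32 and Rps18 were below 0 in the probe set given here, with -0.39 as the lowest, and 0 of these reference genes passed.

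In the small subunit of the cytosolic ribosome 1 of 25 genes fell, and 0 rose (4% called, against 10.5% of all genes). At an unadjusted p under 0.05, 3 were lower and 0 were higher (12%, against 23.1% of all genes). Rps4l, the autosomal copy of the X-linked gene Rps4x, read 9.31 and 8.99 at day 4 and 7.79 and 8.14 at day 7. The days were apart by more than the gap between replicates, and the difference was -1.19 ± 0.18 (SE, 2 arrays per day; 2.28-fold lower, adjusted p = 0.00803), the lowest of all members. Without day 7 replicate 1 its adjusted p was 0.0748. Rps4x itself read 12.59, 12.46, 12.52 and 12.56, a difference of 0.02. The genes are close copies, and how much of the signal of each probe set comes from the other gene was not tested.

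Rps6, the member of the small subunit that S6 kinases phosphorylate, read 13.45 and 13.41 at day 4 and 13.45 and 13.49 at day 7. It had the brightest probe set of its class, and its difference was 0.04, with a 95% confidence interval from -0.28 to 0.37. A dimmer Rps6 probe set, shared with Rps6-ps4, read 8.19, 8.06, 7.58 and 7.62, a difference of -0.53. The dimmest probe set of the class was that of Rps13, at 5.83 and 5.03 and then 6.12 and 5.08. Its replicates were further apart than the days (difference 0.17 ± 0.38, SE). Brighter probe sets naming Rps13 with other genes differed by -0.88, -0.67 and 0.11.

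Of the 9 measured members with mouse mutants or a known role in p53 signalling, 0 passed in limma and 0 had an unadjusted p under 0.05. Rpl38, whose loss gives homeotic skeletal changes and was tied to translation of Hox mRNAs, read 12.53, 12.52, 12.42 and 12.41 (difference -0.11). Rps19, the gene most often mutated in Diamond-Blackfan anaemia, differed by -0.001 in its brightest and by -0.38 in its dimmest probe set. Rps7 differed by -0.12. Rps20, whose mutation darkens the skin of mice, read 7.58 and 6.84 at day 4 and 7.22 and 6.52 at day 7. The difference was -0.34 ± 0.30 (SE), with overlapping days, and the other Rps20 probe set differed by -0.08. Rpl5 and Rpl11, which carry the 5S ribosomal RNA and bind Mdm2, differed by -0.13 and -0.23, Rpl22 by -0.15 and Rpl27a by -0.04. Rpl24, the gene of the Belly spot and tail mouse, had only probe sets shared with Zbtb11, with differences from -0.15 to 0.01.

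**Figure D2:**
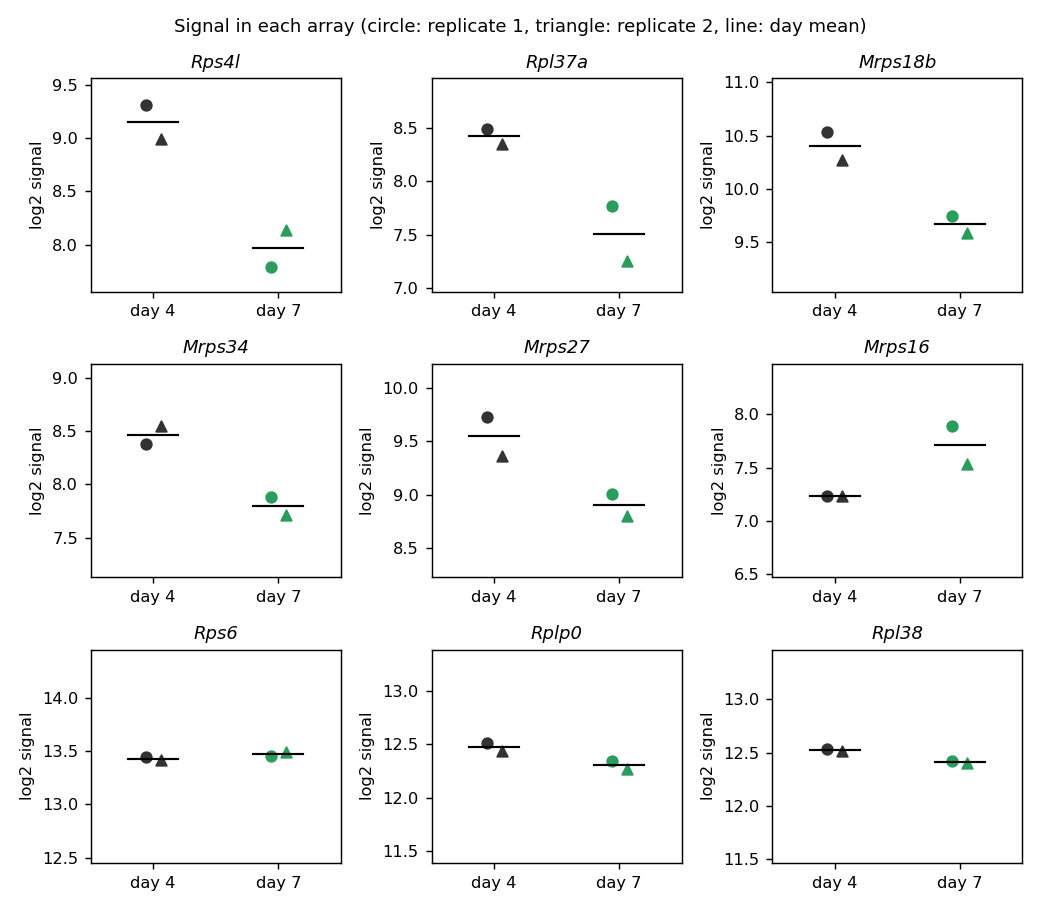
Log2 signal of 9 genes in each of the 4 arrays (circles replicate 1, triangles replicate 2, lines the mean of a day), each panel spanning 2 log2 units. Rps4l, Rpl37a, Mrps18b and Mrps34 fell, and Mrps27 and Mrps16 show apart days without passing. In the probe sets shown, Rps6, Rplp0 and Rpl38 differ by 0.17 log2 or less.

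Several ribosomal proteins have a paralog, some with a narrower pattern of expression, and 7 such pairs were measured by probe sets of their own. The signal of a pair's members cannot be compared as a level, since they come from different probes. The change between days can also differ between probe sets of 1 gene, as for Rps26 (dimmest minus brightest -0.92 log2). The moves below thus describe these probe sets, and the part of the probes in them was not tested. The gap between the paralog and the gene moved by -1.20 log2 for Rps4l against Rps4x (-3.28, -3.47, -4.73 and -4.43 in the 4 arrays) and by -0.51 for Mrps18b against Mrps18a (1.36, 1.25, 0.78 and 0.81). In both pairs the day 7 gaps lay below the day 4 gaps. For the other 5 pairs it moved by -0.08 to 0.25: Rpl3l, known from muscle, against Rpl3 by -0.08, Rpl39l, known from testis, against Rpl39 by -0.02, and Rpl7l1 against Rpl7 by 0.09. Rpl22l1, which Rpl22 represses in other cells, moved against it by 0.13, and Rps27l, a p53 target, moved against Rps27 by 0.25. These moves are descriptions with no test. The copy Rpl10l, known from testis, differed by -0.37 ± 0.15 (SE; adjusted p = 0.189), but Rpl10 had only shared probe sets.

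In the small subunit of the mitochondrial ribosome 2 of 27 genes fell and 0 rose (7.41% called, against 10.5% of all genes). At an unadjusted p under 0.05, 3 were lower and 1 was higher (14.8%, against 23.1% of all genes). Mrps18b, 1 of the related Mrps18 proteins, read 10.54 and 10.27 at day 4 and 9.75 and 9.59 at day 7. The days did not overlap, and the difference was -0.74 ± 0.16 (SE; 1.67-fold lower, adjusted p = 0.0282). Its other probe set read 10.27, 9.88, 9.42 and 9.18, a difference of -0.77, in the same direction. Leaving out day 4 replicate 1 gave an adjusted p of 0.0864, leaving out day 7 replicate 1 gave 0.124, and leaving out the other day 7 array gave 0.198.

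Mrps34, a protein specific to the mitochondrial ribosome whose loss lowers mitochondrial translation in mouse, read 8.38 and 8.54 at day 4 and 7.88 and 7.71 at day 7. The difference was -0.67 ± 0.15 (SE; 1.59-fold lower, adjusted p = 0.0328). A probe set shared with Nme3 read 10.22, 10.10, 9.39 and 9.16, a difference of -0.89, and cannot separate the genes. The adjusted p of Mrps34 was 0.0823 if day 4 replicate 2 was left out, 0.129 if day 7 replicate 1 was, and 0.229 if its day 7 partner was.

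Mrps27, a pentatricopeptide repeat protein, came just short of the threshold. It read 9.73 and 9.36 at day 4 and 9.0 and 8.80 at day 7 (difference -0.64 ± 0.18, SE; adjusted p = 0.0657), and passed under several of the alternatives. Mrps16, an RNA-binding protein of the small subunit, was the highest member of all with 0.48 ± 0.16 (SE; adjusted p = 0.133). It read 7.23 and 7.24 at day 4 and 7.89 and 7.53 at day 7, with both day 7 arrays above. Its other, dimmer probe set differed by -0.16 and so did not share the direction. Mrps15 had the brightest probe set of the class and differed by -0.07, and Mrps36 had the dimmest and differed by -0.16.

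In the large subunit of the mitochondrial ribosome 0 of 43 genes passed in limma, against 10.5% of all genes. At an unadjusted p under 0.05, 7 were lower and 1 was higher (18.6%, against 23.1% of all genes). The interval of every one of the 43 lay within 1 log2 of 0. Mrpl2, a core protein near the peptidyl transferase centre, read 8.95 and 8.60 at day 4 and 8.44 and 8.25 at day 7 (difference -0.43 ± 0.17, SE; adjusted p = 0.189). Mrpl45, which lies at the tunnel exit and ties the ribosome to the inner membrane, read 8.84, 8.54, 8.28 and 8.24 (difference -0.43 ± 0.16, SE; adjusted p = 0.154). In both, the day 7 arrays lay below the day 4 arrays. Mrpl34 had the brightest probe set, at 11.49, 11.36, 11.16 and 10.97 (difference -0.36), and Mrpl48 the dimmest (difference 0.10).

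A few large subunit genes stood on the other side. Mrpl58, also known as Ict1, is a peptidyl-tRNA hydrolase that frees stalled ribosomes, and it read 9.37 and 9.20 at day 4 and 9.76 and 9.60 at day 7 (difference 0.39 ± 0.15, SE; adjusted p = 0.168). Mrpl14 read 7.77 and 7.87 at day 4 and 8.12 and 8.16 at day 7 (difference 0.32 ± 0.14, SE; adjusted p = 0.227). Both day 7 arrays were above both day 4 arrays in each gene, and 6 of the 70 mitochondrial members had that pattern (8.57%, against 25.6% of all genes).

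Much of the spread of the members lay between arrays rather than days. Day 4 replicate 1 was the highest of the 4 arrays for 100 of the 137 members (73.0%), 50 cytosolic and 50 mitochondrial, against 27.1% of all genes. In that array the median deviation from a gene's own mean was 0.14 log2 in the cytosolic and 0.20 in the mitochondrial genes, against -0.02 over all genes. Day 4 replicate 2 was at -0.03 and -0.06, day 7 replicate 1 at -0.03 and 0.02, and day 7 replicate 2 at -0.06 and -0.18. Among mitochondrial genes replicate 1 was above replicate 2 for 63 of 70 at day 4 and for 65 of 70 at day 7, and among cytosolic genes for 55 of 67 and 41 of 67. The gap between the day 4 replicates was wider than the difference between the days for 83 of the 137 members (60.6%, against 48.8% of all genes).

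Leaving out arrays moved the lean of the family accordingly. Without day 4 replicate 2, 119 of the 137 members were below 0, with medians of -0.18 in the cytosolic and -0.30 in the mitochondrial genes. Without day 7 replicate 1, 115 were below 0 (medians -0.11 and -0.25), and without day 7 replicate 2, 92 were (medians -0.07 and -0.03). The members' lean below 0 thus rested on day 4 replicate 1 in both families and also on day 7 replicate 2 in the mitochondrial genes. Of the 4 members that fell, Rps4l (adjusted p = 0.0214) and Mrps34 (adjusted p = 0.0429) still passed without day 4 replicate 1.

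**Figure D3:**
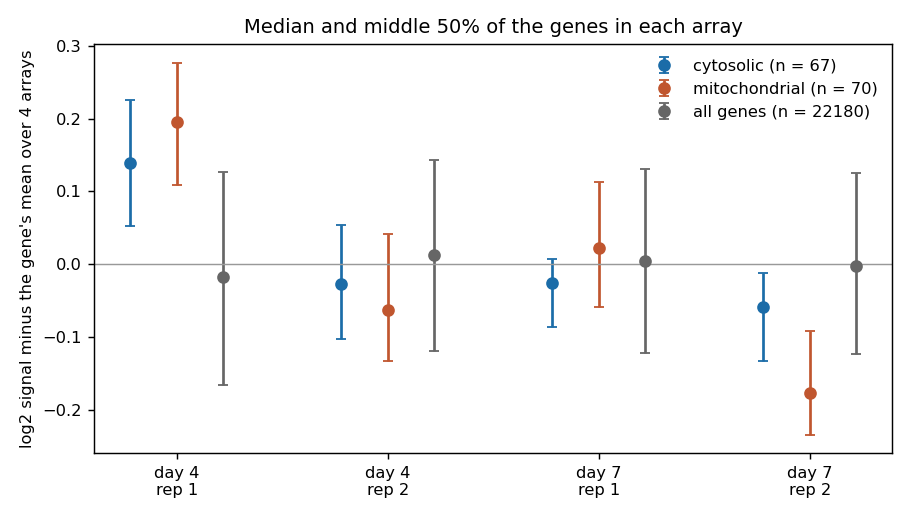
Median (points) and middle 50% (bars) over genes of the log2 signal minus the gene's mean over the 4 arrays, by array, for the 67 cytosolic members, the 70 mitochondrial members and all 22180 genes. Day 4 replicate 1 is at 0.14 and 0.20 in the members, while the medians of all genes stay between -0.02 and 0.01.

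The cytosolic genes with the brightest probe sets differed least between the days, as did the brightest of all genes. The 20 cytosolic genes at a mean signal of 12 or more had a median absolute difference of 0.04 log2 and a median difference of -0.04. The 17 with a signal of 6 to 8 had a median difference of -0.27, and 16 of them were below 0, while the median of all genes in that range was 0.04. The 6 below a signal of 6 broke this order, with 3 below 0 and a median of -0.01. Their median absolute difference was 0.20 log2, against 0.27 at a signal of 6 to 8. Over all genes the median absolute difference was 0.14 below 6, 0.30 at 6 to 8 and 0.07 at 12 or more. The replicates of the cytosolic genes were also further apart at 6 to 8, with a median day 4 gap of 0.31 log2 against 0.06 at 12 or more. The part of probe set brightness in these differences was not tested.

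Other probe sets of the same genes were mostly below 0 too, but differed in size. In all, 256 probe sets named a member, 186 of them alone, and 206 of the 256 differed below 0. Fitted on all 41345 probe sets, 1 of the 256 passed (Rps4l, 0.391%), against 3.2% of all probe sets (1.35% lower). For 32 members several probe sets with different values named that gene alone, and the dimmest was below the brightest in difference for 26 of them (81.2%), with medians of -0.31 and -0.08. Among 1041 other genes this held for 59.8%, with medians of -0.06 and 0.00007. Where the brightest probe set was at a signal of 10 or more, it held for 20 of 24 members (83.3%; medians -0.31 and -0.07) and 138 of 190 other genes (72.6%; medians -0.13 and -0.01). Rpl3, which lies at the peptidyl transferase centre, had 3 such probe sets: the brightest read 12.52, 12.57, 12.50 and 12.54 (difference -0.02), the next 10.90, 10.92, 9.83 and 10.32 (difference -0.83) and the dimmest 5.42, 5.11, 4.57 and 4.89 (difference -0.53). Rps26 likewise differed by -0.04 in its bright and by -0.95 in its dim probe set.

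**Figure D4:**
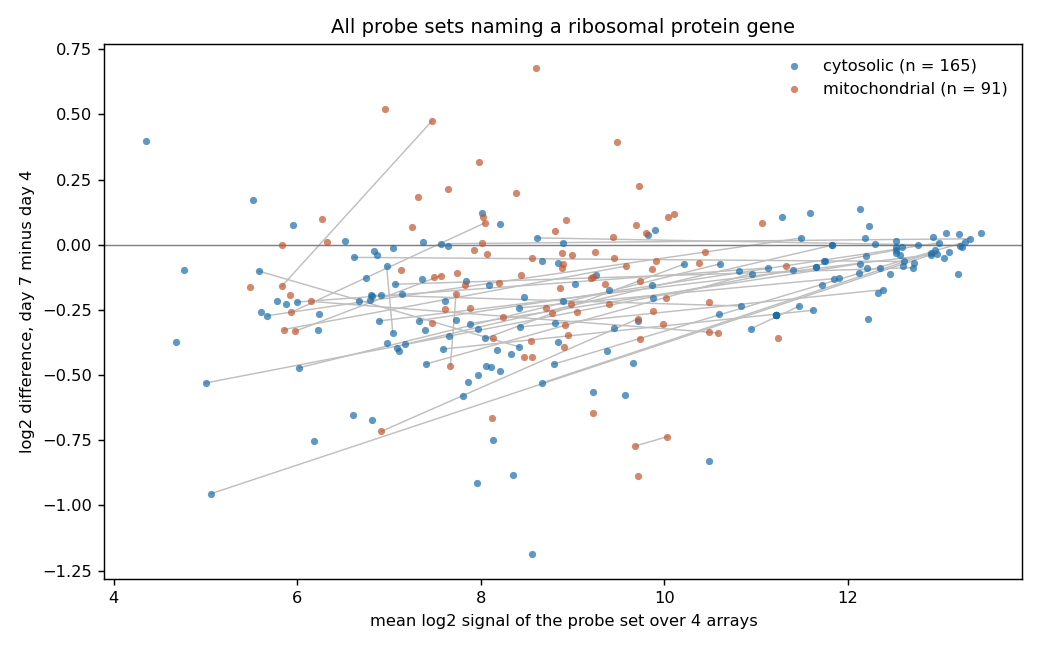
Day 7 minus day 4 difference (log2) against the mean log2 signal for every probe set naming a member; grey lines join the brightest and dimmest probe set of the 32 genes that have several. At a signal above 12 the points lie close to 0, and for 26 of the 32 genes the line leads down to the dimmer probe set.

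The 20 members named only by shared probe sets, 13 cytosolic and 7 mitochondrial, were covered by 36 probe sets. Of these 26 were below 0 and 0 passed in limma over all probe sets, with differences from -0.56 to 0.68 and a lowest adjusted p of 0.174. The highest was the probe set naming Mrps6 together with Slc5a3, a myo-inositol transporter, at 8.49 and 8.02 on day 4 and 8.93 and 8.94 on day 7. The lowest named Rps2 with gene models. In such a probe set the gene that gives the signal cannot be told apart from the others.

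Small nucleolar RNAs lie in introns of many cytosolic members and guide the modification of ribosomal RNA. RefSeq places 45 of them within 23 members, and 13, in 12 members, had a probe set of their own. Of these 5 fell and 0 rose, with 6 lower and 0 higher at an unadjusted p under 0.05, against 4.33% of all genes called lower. All 13 were below 0, with a median of -0.44 log2, and 9 of the 12 hosts were below 0. These counts rest on the brightest probe set of each gene. For Snora33, in Rps12, the probe sets disagreed. Its brightest differed by -0.15 and did not pass. In limma its dimmest differed by -1.18 (adjusted p = 0.0028) and the average of its probe sets by -0.66 (adjusted p = 0.024). Under either of these 2 alternatives 6 of the 13 fell. Of the other 68 small nucleolar RNA genes measured, 7 fell, 0 rose and 58 were below 0, with a median of -0.27.

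The 5 that fell sit in 4 hosts whose brightest probe sets differed by -0.13 to 0.03. Dimmer probe sets of Rpl3 (-0.83 and -0.53), Rps3a1 (-0.27) and Rpsa (-0.24) differed by more. For Rpl23a a dimmer probe set, shared with gene models, differed by 0.04. The 5 are named to complete the count, with their values in view. Snora62, in Rpsa, read 9.46 and 9.53 at day 4 and 8.54 and 8.44 at day 7 (difference -1.0 ± 0.14, SE; adjusted p = 0.0051). Snord43 and Snord83b, both in Rpl3, differed by -0.83 (adjusted p = 0.0130) and -0.79 (adjusted p = 0.0428). Snord73a, in Rps3a1, differed by -0.81 (adjusted p = 0.0290) and Snord42b, in Rpl23a, by -0.73 (adjusted p = 0.0227). The days did not overlap in any of the 5. Without day 4 replicate 1, 2 of the 13 passed (Snora62 and Snord43) and 11 were below 0. Without day 7 replicate 1, 1 passed, and without day 7 replicate 2, 0 passed. The small RNA and unspliced host transcript cannot be told apart by a probe within it.

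The wider machinery of ribosome making and translation was read from lists of 306 genes, of which 262 were measured. Of these 3 rose and 4 fell (2.67% called, against 10.5% of all genes), and 208 were below 0, with a median of -0.17 log2. Among 89 genes of ribosome assembly in the nucleolus 3 fell and 0 rose, with 27 lower and 0 higher at an unadjusted p under 0.05. That is 3.37% of the list called lower, against 4.33% of all genes, and over all genes 10.5% were lower at an unadjusted p under 0.05. The count was sensitive to the fit: 19 fell with an intensity trend in the variance prior (background 5.81%) and 14 among genes above the 50th percentile of signal (background 9.4%). The median was -0.31, against -0.11 for the ribosomal proteins, and 84 of the 89 were below 0. Utp14a, a helicase cofactor of small subunit processing, read 9.76 and 9.33 at day 4 and 8.63 and 8.59 at day 7 (difference -0.94 ± 0.18, SE; adjusted p = 0.0177). Mdn1, the AAA ATPase that strips factors from the large subunit precursor, differed by -0.87 ± 0.14 (SE; adjusted p = 0.0101), and Utp20 of the small subunit processome by -0.62 ± 0.15 (SE; adjusted p = 0.0467), named to complete the count. Utp14a and Mdn1 did not pass when either day 7 array was left out (adjusted p from 0.0669 to 0.12), and Utp20 did not pass when either day 7 array or day 4 replicate 1 was left out (adjusted p from 0.131 to 0.293). Day 4 replicate 1 was the highest array here too, for 75 of the 89 genes. Without it 76 were below 0, with a median of -0.22 and 2 that fell, and over the other arrays left out in turn 78 to 89 were below 0, with medians from -0.43 to -0.21 and 0 to 3 that fell.

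The remaining cytosolic lists held few calls. None of 15 RNA polymerase I genes passed, with 1 lower and 0 higher at an unadjusted p under 0.05 and a median of -0.17. None of 46 initiation and elongation factors (2 higher and 0 lower unadjusted, median -0.08) and none of 18 cytosolic tRNA synthetases (4 lower and 0 higher unadjusted, median -0.20) did. Of 19 other TOP mRNAs 1 rose, Vim, the intermediate filament of progenitor cells, from 11.23 and 10.97 to 12.68 and 12.65 (2.96-fold, adjusted p = 0.0012), and the median was -0.07. Eef1a1, an abundant TOP mRNA, differed by 0.004 and Fau, the small subunit protein left out by the name pattern, by -0.09.

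In mitochondria, 1 of 16 tRNA synthetases fell: Cars2, which charges cysteine tRNA, read 9.10 and 9.14 at day 4 and 8.56 and 8.42 at day 7 (difference -0.63 ± 0.14, SE; adjusted p = 0.0330). The call was lost whichever array was left out (adjusted p from 0.0662 to 0.232). None of 25 mitochondrial ribosome assembly genes (1 lower and 0 higher unadjusted, median -0.15), of 14 mitochondrial translation factors (2 lower and 0 higher unadjusted, median -0.16) or of 4 mitochondrial ribosomal proteins outside the name pattern (0 unadjusted in either direction) passed. Of those 4, Dap3 differed by -0.26, Ptcd3 by -0.25, Gadd45gip1 by -0.12 and Mrps18c by 0.15.

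The regulators of ribosomal protein synthesis were the list with a median above 0. Of these 19 genes 1 rose, Rps6kb2, an S6 kinase that phosphorylates Rps6, from 8.57 and 8.50 to 9.07 and 9.14 (difference 0.57 ± 0.14, SE; adjusted p = 0.0447), and the median was 0.06. The call of Rps6kb2 was lost whichever array was left out (adjusted p from 0.0794 to 0.258) and under median centring of the arrays (0.060). Mycl read 7.02 and 6.75 at day 4 and 7.62 and 7.32 at day 7 (difference 0.59, adjusted p = 0.0836), Myc differed by 0.38 and Mycn by 0.21. Other genes of this list went down: 6 of the 19 were below 0, with -0.46 as the lowest difference. At an unadjusted p under 0.05 in limma, 3 were higher and 1 was lower. Under median centring of the arrays 9 of the 19 were below 0, and the median was 0.02. Of 11 regulators of mitochondrial biogenesis 1 rose, the coactivator gene Ppargc1a, at a low signal of 3.61 and 3.77 at day 4 and 4.43 and 5.03 at day 7 (difference 1.04 ± 0.21, SE; adjusted p = 0.0228). It did not pass without day 4 replicate 1 (adjusted p = 0.0618) or without day 7 replicate 2 (adjusted p = 0.124). Nrf1 and Tfam differed by -0.15 and -0.10.

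**Figure D5:**
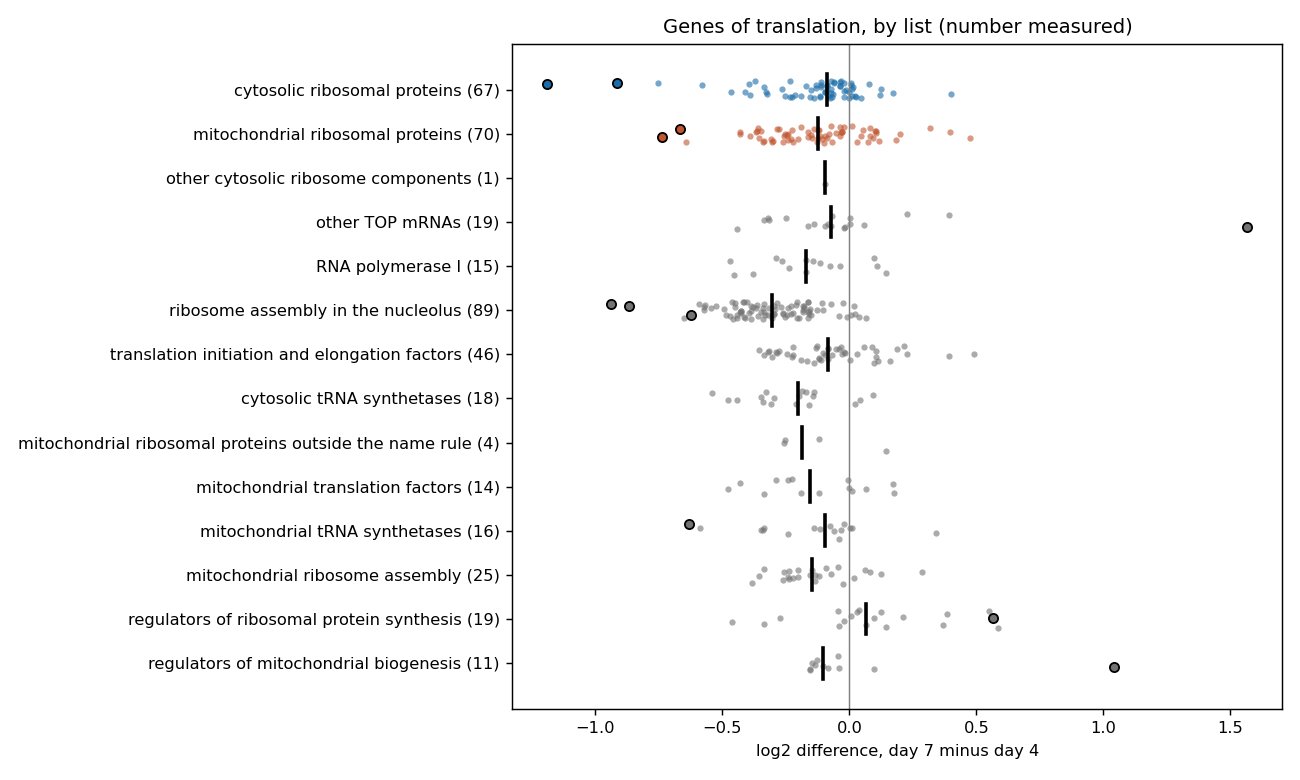
Day 7 minus day 4 difference (log2, horizontal axis) of each gene of the ribosomal protein families and of the lists of translation genes, with the number measured beside each name; black bars are medians and outlined points passed the test. The nucleolar assembly list has the lowest median, -0.31, and the regulators of ribosomal protein synthesis are the list with a median above 0.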

How the data were processed

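RNA of 4 retinal aggregate samples, 2 per day, was hybridised to Affymetrix gene arrays. The authors deposited log2 values per probe set. The submitters' processing notes name RMA and Partek 6.5; the settings are not given in the sources used here. RMA quantile-normalizes arrays, so a change in total ribosomal mRNA shared with most genes would not be seen, and residual background shrinks the folds of dim genes. Days and replicate numbers came from the sample titles.

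Of 41345 probe sets, 23521 named 1 gene and 1814 several; the brightest single-gene probe set per gene gave 22180 genes, and 0 values were missing. The symbols of the 137 members were all found in RefSeq. In R 4.3.3, limma 3.58.1 fitted every gene on day alone (lmFit, then eBayes without a trend; residual degrees of freedom 2). The tests are two-sided with Benjamini-Hochberg adjustment over all genes, and rose or fell means an adjusted p under 0.05. SE is limma's moderated standard error (median 0.156; prior SD 0.16 on 5.07 degrees of freedom). The fit was tested on simulated data. With 4 arrays, their number limits the precision.

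The members and lists were chosen with earlier results of these data known. Named genes were the called members of each class with the largest change (or the 2 with the largest difference), the highest and lowest by signal, the paralog pairs, a fixed set of mutant and reference genes, and up to 2 called genes per direction in each list; others (Rpl17, Rpl6, Rpl32l, Rps26, Mrps27, Mrps16, Mrpl58, Mrpl14, the unpassed list genes, Utp20 and the small nucleolar RNAs) were chosen after their values were seen. Snora and Snord genes were placed in hosts by RefSeq gene spans, and promoter windows came from RefSeq (GRCm38.p6). Same-numbered replicates correlated with r = 0.147 in their deviations from the day means; with 2 pairs this does not establish pairing. Alternatives were a replicate block, each array left out, quantile normalization, median centring, dropping genes under the 25th or 50th percentile of signal, an intensity trend with robust estimation, averaging the probe sets of a gene, and an adjusted p under 0.1. The dimmest probe set of a gene was added after seeing the data.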

Additional observations from a re-analysis of the deposited data

How the results depend on the processing

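No direction was reversed among the called values. Over the arrays left out in turn, the count of cytosolic members that fell ran from 1 to 4 and of mitochondrial members from 0 to 2, their medians from -0.18 to -0.01 and from -0.30 to -0.0026, members of paralog pairs that fell from 0 to 2, and list genes that rose from 1 to 2 and fell from 0 to 3. With the replicate number as a block in limma, 2 cytosolic and 3 mitochondrial members fell (Mrps27 was added, adjusted p = 0.0304). That is 3.65% of the members, against 12.5% of all genes (2770) that passed. List genes that fell numbered 9. Since the numbers do not establish pairing, these counts are a hint at most. With the intensity trend 4 mitochondrial members fell (5.71%, against 5.81% of all genes lower), and 5 list genes rose and 29 fell, where 13.8% of all genes passed. Above the 50th percentile of signal 5 list genes rose and 20 fell, where 23.2% of all genes passed (9.4% lower). At an adjusted p under 0.1, 6 rose and 14 fell, where 15.1% of all genes passed. With quantile normalization 5 rose, where 11.2% of all genes passed. Of 51 named genes, 19 that did not pass changed sign under some alternative. With 2 arrays per day, differences under about 0.5 log2 are mostly within the error, and every call among members was lost without 1 array or another. Over all genes too, fewer passed without either day 7 array, so a call lost there is not particular to the genes named here.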
